A study of Mus musculus with 104 samples.

Results

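Blastoids are blastocyst-like structures that assemble from stem cells in culture. The mRNA of 2 blastoid libraries was compared with that of 4 libraries of the stem cells named TBLC in their titles (mTBLCs below), and both were placed beside 1 library of E3.5 blastocysts. These 7 libraries were chosen by their titles, out of 104 in the whole series. The blastoids were TC1-GFP cells, wild type, cultured in a medium named TNKM. The mTBLCs were TC1-GFP cells, wild type, cultured in a medium named 2MYCP, at passages 6, 8, 14 and 19, and their values are given in that order throughout. The blastocyst library was labelled as wild type and came from ICR embryos. Both culture groups carry the cell type label mESC and share the TC1-GFP line. The labels expand neither medium name, do not say which cells the blastoids were made from, how many structures or embryos were pooled, or whether the 2MYCP cultures held feeder cells. Whether libraries of 1 group are separate cultures is not stated, and the p-values then reflect only library-to-library spread, which may be technical. Each group was deposited in a table of its own, so group and table cannot be told apart. No embryonic stage is given for the blastoids, and whether they match an E3.5 blastocyst in stage was not tested.

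The mouse blastocyst comes to hold 3 cell types. The trophectoderm is an outer epithelium, sealed by tight junctions and built on simple keratins, that is set up by Cdx2, Tead4 and Gata3 and later forms the placenta. The inner cells divide into the epiblast, which carries Nanog, Sox2 and Pou5f1, and the primitive endoderm, which carries Gata6, Gata4, Sox17 and Pdgfra, lays down basement membrane and becomes the visceral and parietal endoderm of the yolk sac. Genes of the 2-cell embryo, such as the Zscan4 cluster, belong to the earlier burst of embryonic transcription and are used as markers of totipotent-like cells in culture.

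The blastoid libraries held 24025913 and 25630279 counts, the mTBLC libraries 22234255 to 22891011 and the blastocyst library 14375343. A count above 0 was found for 17360 and 17394 genes in the blastoids, 18159 to 18543 in the mTBLCs and 15262 in the blastocyst. Ribosomal protein genes took 8.09% and 6.43% of counts in the blastoids, 4.24% to 4.70% in the mTBLCs and 4.04% in the blastocyst. The correlation of log2 CPM (counts relative to library size, scaled by TMM) over 17041 genes was 0.983 between the blastoids and 0.978 to 0.991 among the mTBLCs. It was 0.893 to 0.908 between a blastoid and an mTBLC library. The blastocyst correlated at 0.846 and 0.849 with the blastoids and at 0.808 to 0.823 with the mTBLCs. These values describe genes within single libraries, which share depth and table with their group.

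A large share of the transcriptome differed between blastoids and mTBLCs. Of 17041 genes tested, 7770 (45.6%) differed, with 3726 (21.9%) higher and 4044 (23.7%) lower in blastoids, at an adjusted p under 0.05, by edgeR's quasi-likelihood test. These genes are said to rise, fall or pass. The blastocyst was placed on the blastoid side of a gene where its log2(CPM + 0.5) was nearer the blastoid mean than the mTBLC mean, which is a description of 1 library with no test. It lay on the blastoid side for 55.5% of all genes tested, for 49.0% of the genes that rose and for 67.7% of those that fell. Among the 124 genes called in the 7 lineage lists (trophectoderm factors, trophectoderm epithelium, primitive endoderm, visceral endoderm, naive, formative and 2-cell), 70 (56.5%) lay on the blastoid side, near the share among all called genes (58.7%). The lists differed widely from one another, as the following paragraphs give gene by gene. The median log2 fold change of all genes tested was -0.06.

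**Figure D1:**
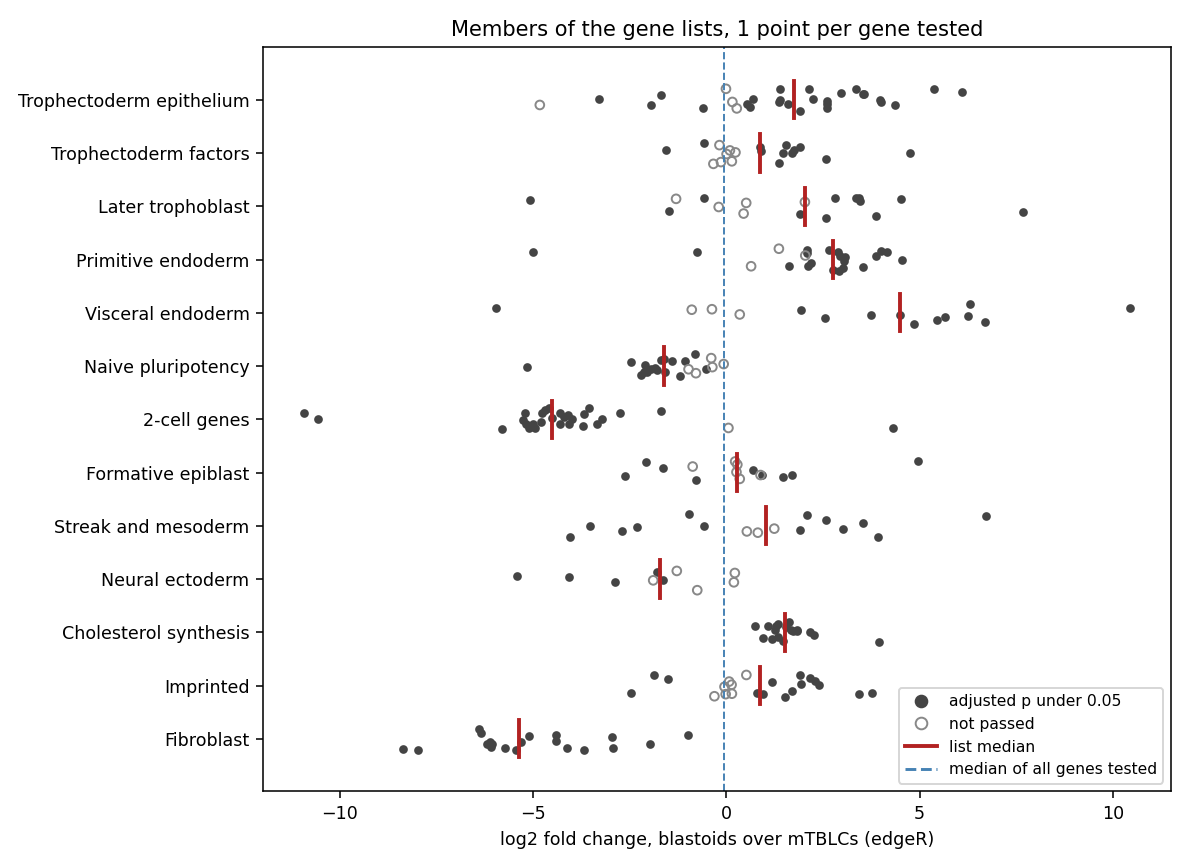
Members of 13 gene lists by log2 fold change, blastoids over mTBLCs (1 point per gene tested, filled where the adjusted p was under 0.05, red bar at the list's median, dashed line at the median of all genes). Trophectoderm epithelium, both endoderm lists and cholesterol genes lie mostly to the right of the line, and naive, 2-cell and fibroblast genes to the left.

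Genes listed for the epithelium of the trophectoderm were mostly higher in blastoids. Of the 30 tested, 22 rose, 4 fell and 4 did not pass, with a median log2 fold change of 1.75. The list shares a member with the primitive endoderm list. Which cells of the blastoids held this RNA, trophectoderm-like or endoderm-like, was not tested. Cldn7, a tight junction claudin, had 172 and 128 CPM in the blastoids, 1.78, 2.01, 1.85 and 3.14 CPM in the mTBLCs and 391 CPM in the blastocyst (log2 fold change 6.09 ± 0.22, adjusted p = 2.0e-06). The keratin Krt18 had 753 and 557 CPM in the blastoids, against 9.995, 14.2, 20.1 and 19.4 CPM in the mTBLCs and 1469.7 CPM in the blastocyst (log2 fold change 5.36 ± 0.27, adjusted p = 5.5e-06). Its partner keratin Krt8 had 724 and 630.2 CPM in the blastoids, 29.5, 33.4, 61.03 and 47.9 CPM in the mTBLCs and 1687 CPM in the blastocyst (log2 fold change 3.98 ± 0.26, adjusted p = 1.3e-05). For these 3 genes the groups were far apart, and the blastocyst lay on the blastoid side, above both blastoids. The adhesion molecule Epcam had 367 and 292 CPM in the blastoids, 47.3, 32.3, 44.9 and 42.8 CPM in the mTBLCs and 1728 CPM in the blastocyst, again on the blastoid side (log2 fold change 2.98 ± 0.17, adjusted p = 6.6e-06). Tinagl1, a matrix protein, had 862 and 347 CPM in the blastoids, 21.9, 24.7, 38.7 and 31.7 CPM in the mTBLCs and 162 CPM in the blastocyst, which lay between the groups and on the blastoid side (log2 fold change 4.37 ± 0.34, adjusted p = 2.6e-05). Cldn6, a second claudin, rose as well (log2 fold change 4.00 ± 0.29, adjusted p = 1.9e-05), to 746 and 509.8 CPM in the blastoids against 35.3, 23.4, 45.1 and 53.6 CPM in the mTBLCs. With 152 CPM the blastocyst was nearer the mTBLC mean of Cldn6 and so not on the blastoid side, though DESeq2 size factors put it there. Without blastoid 1 the log2 fold change of Tinagl1 was 3.58. Over the 22 genes that rose, the blastocyst was on the blastoid side for 18, against 49.0% of all genes that rose.

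Genes of the same list that mark blastocyst trophectoderm fell in the blastoids. Ptges, a prostaglandin E synthase, had 8.67 and 6.98 CPM in the blastoids, 61.3, 73.03, 80.9 and 90.7 CPM in the mTBLCs and 403 CPM in the blastocyst (log2 fold change -3.29 ± 0.20, adjusted p = 1.0e-05). Aqp3, a water channel, had 19.1 and 4.11 CPM in the blastoids, 40.6, 79.4, 19.4 and 38.03 CPM in the mTBLCs and 280.1 CPM in the blastocyst (log2 fold change -1.94 ± 0.65, adjusted p = 0.037). The blastoid values of Ptges stood clear of the mTBLC values, while blastoid 1 and the passage 14 mTBLCs nearly met for Aqp3. Lgals3 and S100a11 were the other two that fell (log2 fold change -1.70 ± 0.43, adjusted p = 0.011; log2 fold change -0.61 ± 0.17, adjusted p = 0.019). The blastocyst lay on the mTBLC side for all 4 of these genes, above every cultured library for Ptges, Aqp3 and S100a11 and within the mTBLC range for Lgals3. Aqp3 did not pass without blastoid 2 (log2 fold change -1.19) or without the mTBLCs of passage 6, 8 or 19 (-1.98, -1.50 and -2.01), and reached -3.43 without blastoid 1. Lgals3 and S100a11 did not pass without blastoid 1 (-1.29 and -0.49), which leaves 2 of the 4 falls. Aqp9, a further water channel, had 0 counts in both blastoids, 0, 0.310, 0.126 and 0.168 CPM in the mTBLCs and 105 CPM in the blastocyst, and did not pass (adjusted p = 0.060). It passed without the passage 6 mTBLCs (log2 fold change -5.20, adjusted p = 0.011) and with no filter on low counts (log2 fold change -4.82, adjusted p = 0.047).

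**Figure D2:**
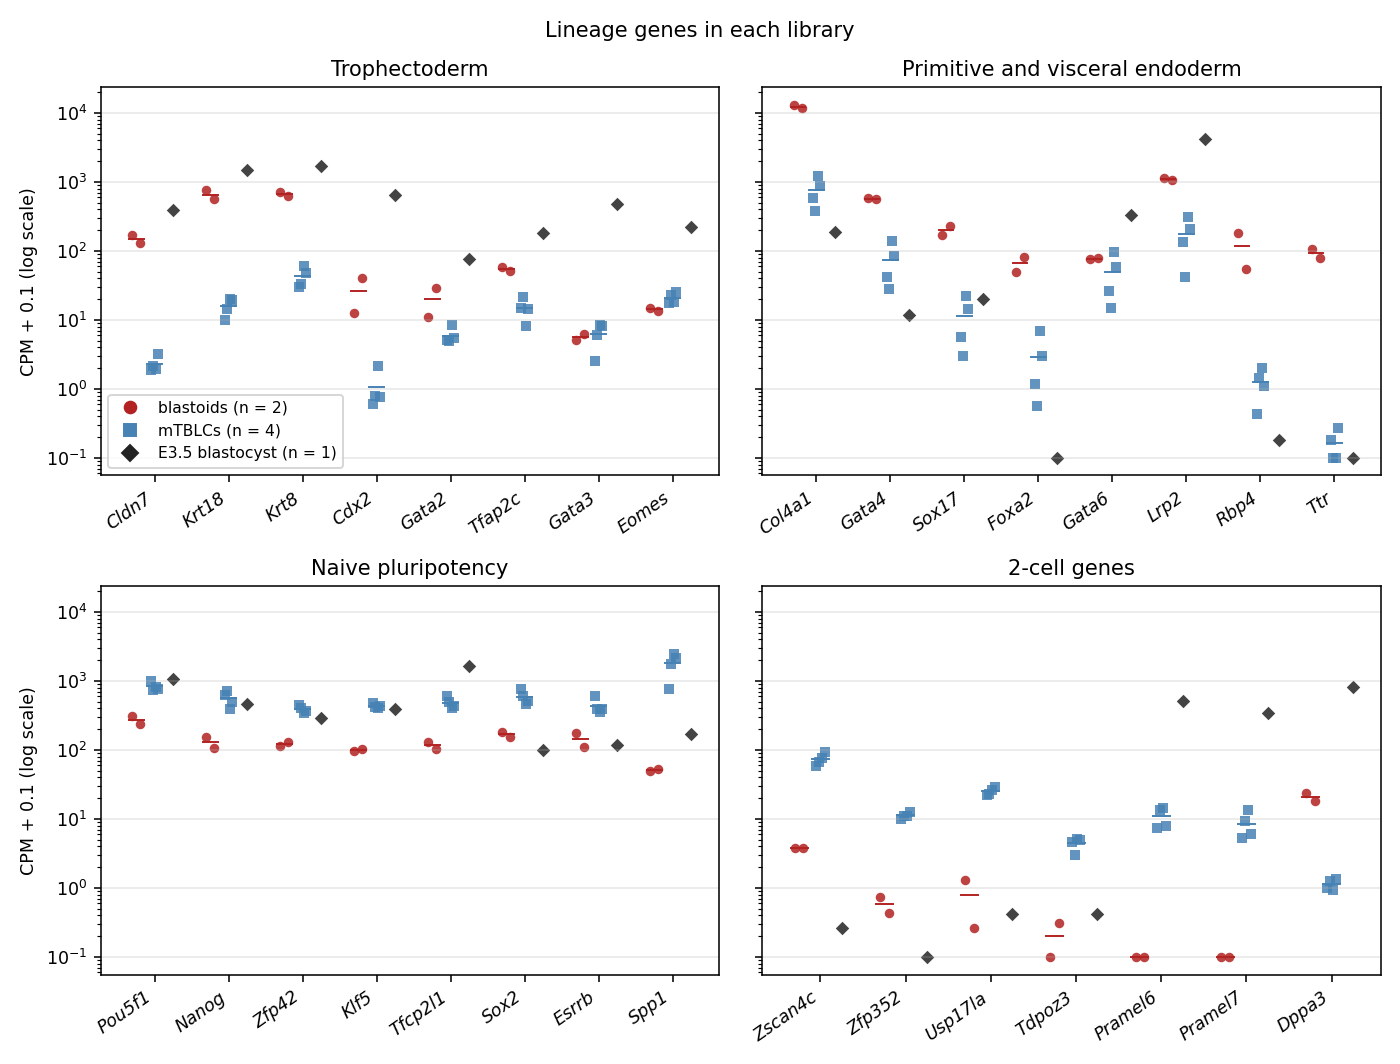
CPM + 0.1 on a log scale of lineage genes in each library, with blastoids as red circles, mTBLCs as blue squares and the blastocyst as a black diamond, and a bar at the mean of groups with several libraries. Cldn7, Krt18 and Krt8 of the blastoids lie nearer the blastocyst than the mTBLCs do, Cdx2 is between it and the mTBLCs, and Gata3, Eomes, Pramel6 and Pramel7 are far below it in both cultures.

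Transcription factors of the trophectoderm were split. Of 19 tested, 10 rose, 2 fell and 7 did not pass (median log2 fold change 0.87). Cdx2, the factor that sets up the trophectoderm, had 12.4 and 39.998 CPM in the blastoids, 0.496, 0.697, 2.02 and 0.670 CPM in the mTBLCs and 639.8 CPM in the blastocyst (log2 fold change 4.76 ± 0.53, adjusted p = 0.00016). Both blastoids were above every mTBLC library, the second of them more than the first, and the blastocyst was on the blastoid side but far above both. Gata2 had 10.8 and 28.6 CPM in the blastoids, 5.04, 4.77, 8.20 and 5.28 CPM in the mTBLCs and 75.95 CPM in the blastocyst (log2 fold change 1.76 ± 0.36, adjusted p = 0.0039). Tfap2c had 59.2 and 50.7 CPM in the blastoids, 14.6, 21.04, 8.16 and 14.4 CPM in the mTBLCs and 183 CPM in the blastocyst (log2 fold change 1.91 ± 0.28, adjusted p = 0.00073). Grhl2, a regulator of epithelial junction genes, had 35.2 and 27.9 CPM in the blastoids, 8.10, 7.25, 13.6 and 10.1 CPM in the mTBLCs and 177 CPM in the blastocyst (log2 fold change 1.70 ± 0.23, adjusted p = 0.00052). The blastocyst was on the blastoid side and above both blastoids for Gata2, Tfap2c and Grhl2. Hand1, which acts in trophoblast and in mesoderm, had 4.29 and 16.2 CPM in the blastoids, 1.65, 2.01, 1.77 and 1.42 CPM in the mTBLCs and 6.59 CPM in the blastocyst, within the blastoid range and on the blastoid side (log2 fold change 2.58 ± 0.46, adjusted p = 0.0020). Blastoid 2 was the higher for Cdx2, Gata2 and Hand1, and without it their log2 fold changes were 3.70, 0.92 (adjusted p = 0.051) and 1.35. Without blastoid 1, or without the passage 14 mTBLCs, that of Cdx2 was 5.38, and that of Hand1 was 3.25 without blastoid 1. Over the 10 factors that rose, the blastocyst was on the blastoid side for 7 and not for the other 3. Among all genes that rose it was there for 49.0%.

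Other factors that the blastocyst held at high levels were not raised in blastoids. Gata3 had 5.07 and 6.16 CPM in the blastoids, 2.40, 5.89, 8.45 and 8.04 CPM in the mTBLCs and 485 CPM in the blastocyst, and it did not pass (log2 fold change -0.14 ± 0.40, adjusted p = 0.80). The blastoids lay inside the mTBLC range of Gata3 and the blastocyst was not on the blastoid side, although the group means are so close that this side has little content and turns with a pseudocount of 0.1. Set against mTBLC passages 1, 2 and 4 in place of the later ones, Gata3 rose (log2 fold change 1.16, adjusted p = 0.0076), and so it did against the 0 h libraries of the time courses (log2 fold change 1.10, adjusted p = 0.011). Tfap2a had 2.63 and 7.93 CPM in the blastoids, 3.02, 5.00, 6.44 and 5.44 CPM in the mTBLCs and 160.3 CPM in the blastocyst, with overlapping culture groups (adjusted p = 0.87, blastocyst not on the blastoid side). Tead4, the factor that acts with Yap1 upstream of Cdx2, had 48.97 and 41.4 CPM in the blastoids, 49.5, 40.6, 48.4 and 41.3 CPM in the mTBLCs and 251 CPM in the blastocyst (adjusted p = 0.97). The culture groups of Tead4 overlapped, so its nominal place on the blastoid side, which turns with DESeq2 size factors, has little content too. Eomes, needed in trophoblast stem cells, fell to 14.8 and 13.3 CPM in the blastoids, against 17.2, 23.2, 18.04 and 25.3 CPM in the mTBLCs, with 222 CPM in the blastocyst (log2 fold change -0.57 ± 0.19, adjusted p = 0.033). Tbx20 fell to 2.26 and 1.85 CPM in the blastoids, against 4.25, 7.25, 4.37 and 8.46 CPM in the mTBLCs, with 238 CPM in the blastocyst (log2 fold change -1.57 ± 0.33, adjusted p = 0.0045). For Eomes and Tbx20 the blastocyst was not on the blastoid side. Eomes did not pass without either blastoid (-0.64 without the first, -0.47 without the second) or without the mTBLCs of passage 8 or 19 (-0.52 and -0.47) or with the blastocyst left out of the fit (-0.55), which leaves Tbx20 as the 1 fall. Elf5, a trophoblast stem cell factor, was near the limit of detection in both cultures, with 0 and 0.329 CPM in the blastoids and 0.413, 0.194, 0.252 and 0 CPM in the mTBLCs, against 6.67 CPM in the blastocyst (adjusted p = 0.84, not on the blastoid side). The blastocyst exceeded every cultured library for 12 of the 19 factors and for 18 of the 30 epithelial genes. It also did so for 13 of 22 spliceosome genes, but for 0 of 22 imprinted genes. The share over all genes was not counted.

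Genes of later trophoblast and placenta were measured in 17 of the 24 listed, of which 9 rose, 3 fell and 5 did not pass. The other 7, among them the giant cell hormone Prl3d1 and the spongiotrophoblast gene Tpbpa, were too low to test. Cited1, a transcriptional co-activator found in placenta, had 398 and 440.1 CPM in the blastoids, 0.909, 2.25, 2.06 and 2.93 CPM in the mTBLCs and 40.99 CPM in the blastocyst, on the blastoid side (log2 fold change 7.68 ± 0.31, adjusted p = 2.5e-06). Plac1 had 6.59 and 13.1 CPM in the blastoids, 0.165, 0.155, 1.14 and 0.251 CPM in the mTBLCs and 3.78 CPM in the blastocyst, also on the blastoid side (log2 fold change 4.52 ± 0.69, adjusted p = 0.00088). Rhox6 and Gjb2 rose too (log2 fold change 3.87 ± 0.24, adjusted p = 1.1e-05; log2 fold change 3.47 ± 0.69, adjusted p = 0.0036), but both had 0 counts in the blastocyst, which lay on the mTBLC side. The gap junction gene Gjb5 fell in the blastoids (log2 fold change -1.48 ± 0.26, adjusted p = 0.0018), while the blastocyst was above every cultured library with 72.6 CPM and not on the blastoid side. Without the passage 14 mTBLCs the log2 fold change of Plac1 was 5.66, and without those of passage 8 that of Gjb2 was 4.20. The syncytiotrophoblast genes Gcm1 and Syna did not pass, with at most 1.36 CPM of Gcm1 and 0.534 CPM of Syna in a blastoid library. Gcm1 passed without the passage 8 mTBLCs (log2 fold change 3.11, adjusted p = 0.018).

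Primitive endoderm genes rose in the blastoids, and most of them were low in the blastocyst. Of 23 tested, 18 rose, 2 fell and 3 did not pass (median log2 fold change 2.76). Col4a1, a chain of basement membrane collagen, had 13083 and 11644 CPM in the blastoids, 585, 384, 1217 and 880.3 CPM in the mTBLCs and 191 CPM in the blastocyst (log2 fold change 4.01 ± 0.37, adjusted p = 6.6e-05). Its partner chain Col4a2 had 6164 and 5848 CPM in the blastoids, 284, 187, 684 and 479 CPM in the mTBLCs and 87.7 CPM in the blastocyst (log2 fold change 3.88 ± 0.42, adjusted p = 0.00014). The blastocyst was below every cultured library for both, so it was not on the blastoid side. Together, the 7 basement membrane genes Col4a1, Col4a2, Lama1, Lamb1, Lamc1, Sparc and Nid1 took 3.39% and 3.21% of counts in the blastoids, 0.371%, 0.246%, 0.717% and 0.526% in the mTBLCs and 0.133% in the blastocyst. Nid1 was the exception among these 7: it fell in the blastoids (log2 fold change -0.77 ± 0.15, adjusted p = 0.0031), with the blastocyst between the groups and on the blastoid side, but not with DESeq2 size factors. Against the cells on gelatin Nid1 had a log2 fold change of 0.68 that did not pass (adjusted p = 0.20). Lama1 did not pass without blastoid 2 (log2 fold change 1.99, adjusted p = 0.056).

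Several factors that define the primitive endoderm rose with the matrix genes, but Gata6 and Sox7 did not pass. Gata4 had 578 and 561 CPM in the blastoids, 42.3, 28.1, 140.2 and 85.1 CPM in the mTBLCs and 11.6 CPM in the blastocyst (log2 fold change 2.95 ± 0.50, adjusted p = 0.0014). Sox17 had 172 and 229.8 CPM in the blastoids, 5.58, 2.94, 21.8 and 14.4 CPM in the mTBLCs and 19.7 CPM in the blastocyst (log2 fold change 4.17 ± 0.59, adjusted p = 0.00059). Foxa2 had 49.2 and 82.3 CPM in the blastoids, 1.07, 0.465, 6.77 and 2.93 CPM in the mTBLCs and 0 counts in the blastocyst (log2 fold change 4.55 ± 0.73, adjusted p = 0.0011). The receptor Pdgfra had 399 and 613 CPM in the blastoids, 38.9, 23.3, 118 and 69.6 CPM in the mTBLCs and 88.8 CPM in the blastocyst (log2 fold change 3.02 ± 0.50, adjusted p = 0.0013). The blastocyst was not on the blastoid side for any of these 4, lying below every cultured library for Gata4 and Foxa2 and within the mTBLC range for Sox17 and Pdgfra. Gata6, the earliest primitive endoderm factor, had 75.1 and 77.98 CPM in the blastoids and 26.4, 14.9, 96.3 and 58.8 CPM in the mTBLCs, inside the mTBLC range, and did not pass (log2 fold change 0.64 ± 0.57, adjusted p = 0.38). The blastocyst had more Gata6 than either culture, 326 CPM, nominally on the blastoid side. Gata6 rose against mTBLC passages 1, 2 and 4 (log2 fold change 2.39, adjusted p = 0.034) and against the 0 h libraries (log2 fold change 1.34, adjusted p = 0.041). Sox7 had a log2 fold change of 1.36 ± 0.58 over the mTBLCs (adjusted p = 0.082). For Sox7 the blastocyst was below every cultured library and not on the blastoid side. Within the mTBLCs, passage 14 was the highest and passage 8 the lowest for each of Gata6, Gata4, Sox17, Foxa2, Pdgfra, Col4a1 and Col4a2, and without passage 14 the log2 fold change of Foxa2 was 5.47.

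For 2 genes of the endocytic machinery of the yolk sac endoderm, Lrp2 and Dab2, the blastocyst was nearer the blastoids than the mTBLCs. Lrp2, a large endocytic receptor, had 1129.5 and 1059 CPM in the blastoids, 136, 41.7, 312 and 211 CPM in the mTBLCs and 4237 CPM in the blastocyst (log2 fold change 2.64 ± 0.55, adjusted p = 0.0045). The adaptor Dab2 had 684 and 1074 CPM in the blastoids, 60.8, 39.02, 238 and 129 CPM in the mTBLCs and 638 CPM in the blastocyst (log2 fold change 2.91 ± 0.57, adjusted p = 0.0032). Without the passage 14 mTBLCs the log2 fold change of Dab2 was 3.53. Lrp2 and Dab2 were the 2 genes of the 18 that rose with the blastocyst on the blastoid side. Cubn, the partner of Lrp2 in uptake, had 695 and 724 CPM in the blastoids, 68.1, 16.9, 427 and 177 CPM in the mTBLCs and 30.9 CPM in the blastocyst, and did not pass (adjusted p = 0.080, not on the blastoid side), though it did without the passage 14 mTBLCs (log2 fold change 3.02, adjusted p = 0.0091). Thbd, thrombomodulin of the parietal endoderm, was the largest fall of the list, with 1.15 and 1.48 CPM in the blastoids, 38.5, 29.5, 55.8 and 47.1 CPM in the mTBLCs and 6.91 CPM in the blastocyst, on the blastoid side (log2 fold change -5.01 ± 0.34, adjusted p = 1.5e-05). The 2MYCP cells grown on gelatin had 0.784 and 0.411 CPM of Thbd, and the blastoids did not differ from them past the threshold (adjusted p = 0.25).

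Visceral endoderm genes were high in the blastoids too. Of 15 tested, 11 rose, 1 fell and 3 did not pass, with a median log2 fold change of 4.49. Ttr, a thyroid hormone carrier, had 107 and 78.7 CPM in the blastoids, 0.0826, 0, 0 and 0.168 CPM in the mTBLCs and 0 counts in the blastocyst (log2 fold change 10.44 ± 0.46, adjusted p = 3.8e-06; the fitted value of a gene so near 0 depends on the prior count). Rbp4, the retinol carrier of plasma, had 184 and 55.2 CPM in the blastoids, 0.330, 1.36, 1.93 and 1.01 CPM in the mTBLCs and 0.0804 CPM in the blastocyst (log2 fold change 6.68 ± 0.56, adjusted p = 4.0e-05). Spink1 had 75.1 and 98.5 CPM in the blastoids, 0.909, 0.271, 2.40 and 0.838 CPM in the mTBLCs and 0 counts in the blastocyst (log2 fold change 6.30 ± 0.52, adjusted p = 3.6e-05). Ihh, the hedgehog ligand of the visceral endoderm, had 89.4 and 123 CPM in the blastoids, 0.620, 0.620, 2.19 and 2.18 CPM in the mTBLCs and 0.964 CPM in the blastocyst (log2 fold change 6.25 ± 0.45, adjusted p = 1.9e-05). Each of these 4 was absent or close to it in both mTBLCs and blastocyst, so the blastocyst was not on the blastoid side. Apoe, a lipid carrier, had 4273 and 2104 CPM in the blastoids, 257, 166, 293 and 244 CPM in the mTBLCs and 91.7 CPM in the blastocyst, which was on the mTBLC side (log2 fold change 3.73 ± 0.29, adjusted p = 2.5e-05). Of the 11 genes that rose, the blastocyst was on the blastoid side for 1.

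The 2 blastoid libraries differed in some of these genes. The 16 visceral endoderm genes summed to 5342 and 2804 CPM in the blastoids, 475, 319, 488 and 413 CPM in the mTBLCs and 138 CPM in the blastocyst. Most of this sum in the blastoids, and of its gap between them, is Apoe, while Spink1 and Ihh were higher in blastoid 2. Afp, alpha-fetoprotein, had 21.1 and 0.164 CPM in the blastoids, 0, 0.155, 0.336 and 0.335 CPM in the mTBLCs and 0.161 CPM in the blastocyst, so its passing (log2 fold change 5.65 ± 1.33, adjusted p = 0.0078) rests on blastoid 1 alone. Without blastoid 1 its counts were too low to test. The first blastoid also had more Rbp4 and Apoe than the second, and without it their log2 fold changes were 5.58 and 3.14. Without blastoid 2 the changes of Rbp4 and Afp were 7.33 and 6.68. Leaving out an mTBLC library moved Ttr to 11.47 (without passage 19) and Spink1 to 7.01 (without passage 14). Lefty1, the Nodal antagonist of the anterior visceral endoderm that is also made by stem cells, fell to 0.968 and 0.534 CPM in the blastoids, against 93.3, 30.8, 29.4 and 31.3 CPM in the mTBLCs, with 0.161 CPM in the blastocyst, on the blastoid side (log2 fold change -5.95 ± 0.70, adjusted p = 0.00023). Without passage 6, which was the highest, its change was -5.35.

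The promoters of 3 genes that rose in blastoids are printed here to show the start regions of an epithelial gene, a visceral endoderm gene and a cholesterol gene. They are the 250 bases before 1 annotated transcription start, 5′ to 3′ on the gene's strand, from RefSeq on GRCm38.p6. Capitals mark GGAATG (the core bound by TEAD factors) in Cldn7, TGTTTAC (the core bound by FOX factors) in Rbp4 and TCACNCCAC (the sterol response element) in Hmgcs1, each found by a search of both strands. Cldn7 and Rbp4 each have a further annotated start whose 250 bases hold no match, and the start with a match is shown.
Cldn7, chr11:69964529-69964778, plus strand: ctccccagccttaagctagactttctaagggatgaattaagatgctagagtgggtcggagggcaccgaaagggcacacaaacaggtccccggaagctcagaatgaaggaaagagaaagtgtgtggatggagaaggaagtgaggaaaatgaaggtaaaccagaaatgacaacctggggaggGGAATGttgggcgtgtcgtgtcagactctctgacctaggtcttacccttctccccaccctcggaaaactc
Rbp4, chr19:38125322-38125571, minus strand: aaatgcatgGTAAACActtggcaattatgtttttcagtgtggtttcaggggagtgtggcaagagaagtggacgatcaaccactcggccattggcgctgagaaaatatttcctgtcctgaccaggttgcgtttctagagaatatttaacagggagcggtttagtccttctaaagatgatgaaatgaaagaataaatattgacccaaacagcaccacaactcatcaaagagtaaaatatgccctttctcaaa
Hmgcs1, chr13:119690101-119690350, plus strand: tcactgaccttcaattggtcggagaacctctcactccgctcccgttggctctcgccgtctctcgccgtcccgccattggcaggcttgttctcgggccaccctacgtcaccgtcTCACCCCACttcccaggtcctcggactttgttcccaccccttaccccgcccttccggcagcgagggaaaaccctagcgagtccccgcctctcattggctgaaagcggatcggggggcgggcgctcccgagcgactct
Within 250 bases before to 50 bases after the start, GGAATG was found in 5 of the 23 trophectoderm epithelium genes that had a promoter entry, and in 3 of 13 primitive endoderm genes, against 16.6% of 27025 genes. TGTTTAC was found in 3 of 12 visceral endoderm genes and in 0 of 13 primitive endoderm genes, against 4.05% of all genes. GGAATG was in 1 of 12 visceral endoderm and 1 of 15 naive genes. The GATA factor motif TGATAA was in 1 of 13 primitive and 2 of 12 visceral endoderm genes, against 10.4% of all genes. The HNF4 motifs CAAAGTCC and CAAAGGTCA were in 0 of 12 visceral endoderm genes. No test was run on these counts. TCACNCCAC was found in 1 of 11 cholesterol genes and in 2 of 15 naive genes, which fell or did not pass, against 1.44% of all genes. A match is a description of letters, and whether any factor binds there was not measured.

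Naive pluripotency genes fell together. Of 22 tested, none rose, 17 fell and 5 did not pass (median log2 fold change -1.60). Pou5f1, the central pluripotency factor, had 307 and 239 CPM in the blastoids, 1002, 732, 827 and 765 CPM in the mTBLCs and 1072 CPM in the blastocyst (log2 fold change -1.61 ± 0.18, adjusted p = 0.00019). Nanog had 152 and 106 CPM in the blastoids, 621, 720.3, 396 and 497 CPM in the mTBLCs and 467 CPM in the blastocyst (log2 fold change -2.11 ± 0.27, adjusted p = 0.00032). Tfcp2l1 had 132 and 102 CPM in the blastoids, 612, 493, 402 and 437 CPM in the mTBLCs and 1671 CPM in the blastocyst (log2 fold change -2.06 ± 0.21, adjusted p = 0.00010). For each of these the cultures did not overlap, and the blastocyst was on the mTBLC side, not the blastoid side. Zfp42, also known as Rex1, had 113 and 132 CPM in the blastoids, 455, 403, 348 and 361 CPM in the mTBLCs and 289 CPM in the blastocyst (log2 fold change -1.68 ± 0.16, adjusted p = 6.9e-05). Klf5, a factor of inner cell mass and trophectoderm, had 95.8 and 104 CPM in the blastoids, 480.3, 424, 407 and 434 CPM in the mTBLCs and 396 CPM in the blastocyst (log2 fold change -2.13 ± 0.14, adjusted p = 1.1e-05). The TGF-beta family ligand Gdf3 had 14.8 and 12.3 CPM in the blastoids, 96.2, 66.4, 76.1 and 63.5 CPM in the mTBLCs and 39.1 CPM in the blastocyst (log2 fold change -2.48 ± 0.21, adjusted p = 4.4e-05). Zfp42, Klf5 and Gdf3 lay between the groups in the blastocyst and nearer the mTBLCs, so not on the blastoid side.

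Other naive genes were low in the blastocyst as well as in the blastoids. Sox2 had 181 and 156 CPM in the blastoids, 752, 599, 467 and 510.3 CPM in the mTBLCs and 101 CPM in the blastocyst (log2 fold change -1.79 ± 0.21, adjusted p = 0.00022). Esrrb had 178 and 109 CPM in the blastoids, 597, 394, 359 and 386 CPM in the mTBLCs and 116 CPM in the blastocyst, within the blastoid range (log2 fold change -1.60 ± 0.27, adjusted p = 0.0014). The Nodal co-receptor Tdgf1 had 151 and 142 CPM in the blastoids, 732, 805, 468 and 690.0 CPM in the mTBLCs and 196 CPM in the blastocyst (log2 fold change -2.20 ± 0.22, adjusted p = 0.00010). Sox2, Esrrb and Tdgf1 were on the blastoid side. Spp1, a secreted phosphoprotein, was the largest fall of the list, with 49.4 and 52.2 CPM in the blastoids, 768, 1767, 2468 and 2187 CPM in the mTBLCs and 172 CPM in the blastocyst, on the blastoid side (log2 fold change -5.14 ± 0.49, adjusted p = 7.4e-05). Of the 17 genes that fell, the blastocyst was on the blastoid side for 9, against 67.7% of all genes that fell. In these bulk libraries, fewer cells of a type and less RNA per cell cannot be told apart.

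Genes of the 2-cell embryo fell in the blastoids almost without exception. Of 38 listed, 33 were in the tables under the listed symbol and 31 were tested: 29 fell, 1 rose and 1 did not pass, with a median log2 fold change of -4.52. Zscan4c, a member of the Zscan4 cluster, had 3.74 and 3.65 CPM in the blastoids, 57.8, 67.2, 75.8 and 93.1 CPM in the mTBLCs and 0.161 CPM in the blastocyst (log2 fold change -4.31 ± 0.25, adjusted p = 6.7e-06). Zfp352 had 0.646 and 0.329 CPM in the blastoids, 10.04, 11.003, 11.1 and 12.6 CPM in the mTBLCs and 0 counts in the blastocyst (log2 fold change -4.52 ± 0.38, adjusted p = 4.2e-05). Usp17la had 1.20 and 0.164 CPM in the blastoids, 21.9, 22.7, 26.4 and 28.7 CPM in the mTBLCs and 0.321 CPM in the blastocyst (log2 fold change -5.22 ± 0.57, adjusted p = 0.00015). The cultures did not overlap, and the blastocyst was at or near 0 and on the blastoid side for all 3. Blastoid 1 had more Usp17la than blastoid 2, with a log2 fold change of -7.19 without it and of -4.34 without the second. The Zscan4, Usp17l, Tdpoz and Pramel genes are families of near-identical copies, so how counts divide among their members is uncertain. The blastocyst was on the blastoid side for 24 of the 29 genes that fell.

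A few genes of this list were abundant in the blastocyst and were the exceptions. Pramel6 had 0 counts in both blastoids, 7.39, 13.6, 14.3 and 7.87 CPM in the mTBLCs and 517 CPM in the blastocyst. Pramel7, which acts in inner cell mass pluripotency, likewise had 0 counts in both blastoids, 5.20, 9.14, 13.5 and 5.86 CPM in the mTBLCs and 338 CPM in the blastocyst. Against a floor of 3 counts for the blastoid group, Pramel6 was at least 165-fold and Pramel7 at least 129-fold lower in blastoids than in mTBLCs (adjusted p = 5.9e-05 and 0.00018). The blastocyst was not on the blastoid side for either. Dppa3, also known as Stella, went the other way: it had 23.6 and 17.9 CPM in the blastoids, 0.909, 1.16, 0.841 and 1.26 CPM in the mTBLCs and 814 CPM in the blastocyst, on the blastoid side (log2 fold change 4.31 ± 0.18, adjusted p = 3.1e-06). A further gene with this contrast, Bhmt, a methyltransferase of methionine metabolism, had 0.0922 and 0 CPM in the blastoids, 9.87, 13.8, 11.1 and 12.5 CPM in the mTBLCs and 1031 CPM in the blastocyst, not on the blastoid side (log2 fold change -7.91 ± 0.43, adjusted p = 6.3e-06; the fitted value of so low a gene depends on the prior count).

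**Figure D3:**
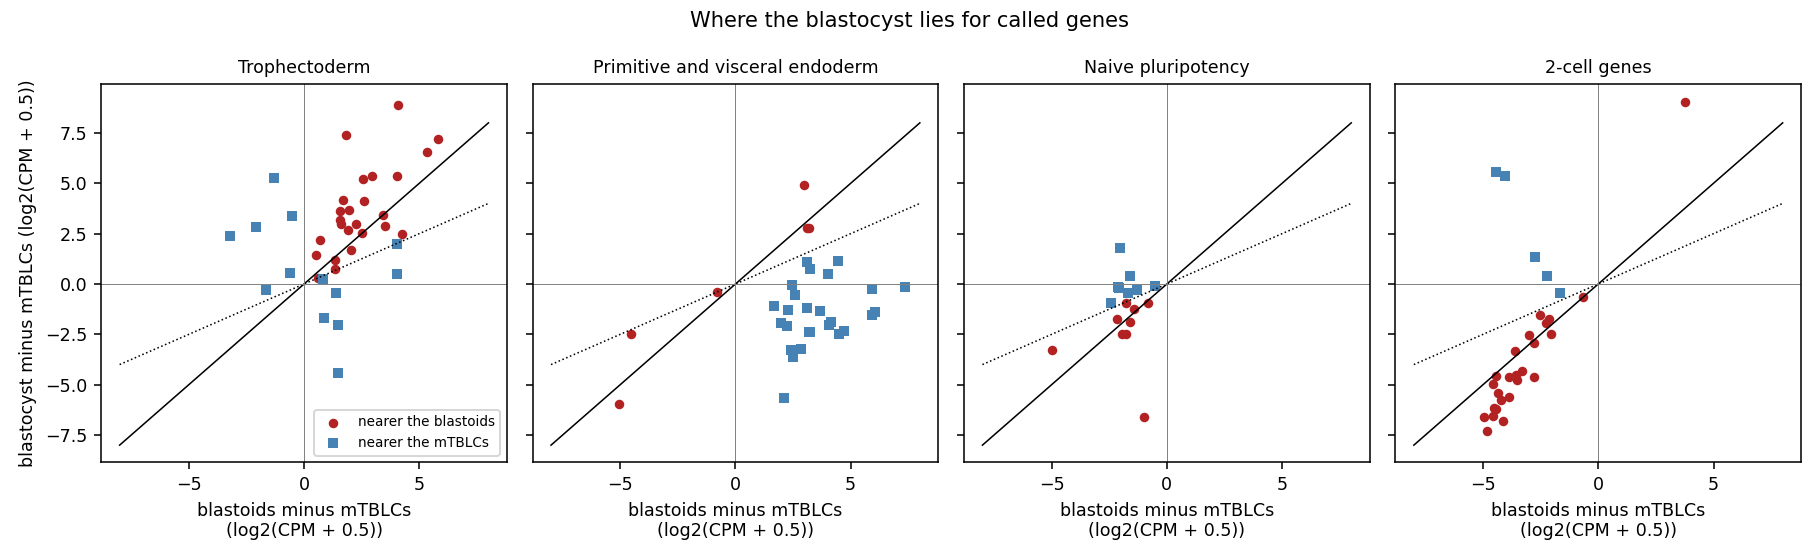
Difference of the blastocyst from the mTBLC mean (y axis) against the difference of the blastoid mean from the mTBLC mean (x axis), both in log2(CPM + 0.5), for the called genes of each lineage. On the solid line blastocyst and blastoids are equal, and beyond the dotted line (0.5 times the blastoid difference) a gene counts as on the blastoid side, as for 18 of the 22 epithelial genes that rose and 2 of the 18 primitive endoderm genes that rose.

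Genes of the formative epiblast, which follows the naive state, moved both ways against the mTBLCs: of 15 tested, 5 rose, 4 fell and 6 did not pass (median log2 fold change 0.28). Against other controls more of them rose, 7 with 1 lower against the cells on gelatin, 8 with 2 lower against mTBLC passages 1, 2 and 4, and 8 with 1 lower against the 0 h libraries (medians 1.28, 1.33 and 1.77). Fgf5 had 6.55 and 2.51 CPM in the blastoids, 1.82, 1.59, 1.14 and 1.05 CPM in the mTBLCs and 0 counts in the blastocyst, not on the blastoid side (log2 fold change 1.69 ± 0.47, adjusted p = 0.016). It did not pass without blastoid 1 (log2 fold change 0.85, adjusted p = 0.24). Otx2 had 63.9 and 25.1 CPM in the blastoids, 47.7, 30.9, 26.4 and 34.8 CPM in the mTBLCs and 15.5 CPM in the blastocyst, with overlapping cultures (adjusted p = 0.44, not on the blastoid side). It passed without blastoid 2 (log2 fold change 0.90, adjusted p = 0.043). Against other control cells Otx2 rose, by 4.03 on the log2 scale against the cells on gelatin, 3.63 against mTBLC passages 1, 2 and 4 and 2.53 against the 0 h libraries (adjusted p = 0.00037, 0.0025 and 0.0023). The DNA methyltransferase gene Dnmt3b rose (log2 fold change 0.93 ± 0.28, adjusted p = 0.024), to 199.7 and 155 CPM in the blastoids against 109, 57.9, 130.0 and 74.5 CPM in the mTBLCs, and the blastocyst was on the blastoid side with 408 CPM. Dnmt3b did not pass without blastoid 1 (0.75) or without the passage 19 mTBLCs (0.84), and the 5 rises of the list came to 2 and 3. Among primitive streak and mesoderm genes 7 of 16 rose and 6 fell, against 3 rises without blastoid 2 and 3 falls without blastoid 1 or without passage 19. T, or brachyury, had 3.78 and 25.6 CPM in the blastoids, 0.578, 1.24, 1.51 and 1.72 CPM in the mTBLCs and 0.161 CPM in the blastocyst, not on the blastoid side (log2 fold change 3.54 ± 0.65, adjusted p = 0.0023). It did not pass without blastoid 2 (log2 fold change 1.61, adjusted p = 0.067), and without blastoid 1 its change was 4.35. Against mTBLC passages 1, 2 and 4 it did not pass either (log2 fold change 0.32, adjusted p = 0.79). The blastoid pair was unequal here: Msgn1, Mesp1 and Fgf8 reached 1.15, 2.63 and 5.26 CPM in blastoid 2, against 0, 0.0922 and 1.11 CPM in blastoid 1, and the blastocyst had 0 counts of all 3. Fgf8 did not pass without blastoid 2 (2.43), and Mesp1 and Msgn1 lost their call whichever mTBLC library was left out (adjusted p of 0.053 or more). Gsc, a streak and organizer gene, fell to 0 and 0.0821 CPM in the blastoids, against 1.24, 0.542, 0.841 and 0.586 CPM in the mTBLCs, with 20.5 CPM in the blastocyst, not on the blastoid side (log2 fold change -4.05 ± 0.83, adjusted p = 0.0041, -3.19 without blastoid 1 and -7.15 without blastoid 2). Of 10 neural genes tested none rose and 5 fell (median log2 fold change -1.72), while 45.6% of all genes were called in either direction. Against the cells on gelatin 1 of 9 was higher and 4 lower (median -0.57). The 0 h libraries gave the same counts (median -0.21), and mTBLC passages 1, 2 and 4 gave none higher and 2 lower (median -0.34). The neuronal tubulin Tubb3 was among the falls against the mTBLCs. It had 1.20 and 2.46 CPM in the blastoids, 96.8, 89.7, 62.2 and 65.8 CPM in the mTBLCs and 2.89 CPM in the blastocyst, on the blastoid side (log2 fold change -5.41 ± 0.35, adjusted p = 1.3e-05, -6.00 without blastoid 2).

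Signalling genes of the pre-implantation embryo were called in varying shares. Fgf4, the ligand that epiblast cells send to the primitive endoderm, fell to 71.5 and 42.3 CPM in the blastoids, against 279, 241, 150.5 and 205 CPM in the mTBLCs, with 37.6 CPM in the blastocyst, on the blastoid side (log2 fold change -1.94 ± 0.29, adjusted p = 0.00076). The receptor Fgfr4 rose to 62.2 and 93.8 CPM in the blastoids, against 3.39, 8.83, 10.8 and 10.5 CPM in the mTBLCs, with 25.6 CPM in the blastocyst, on the blastoid side, though not with a pseudocount of 2 (log2 fold change 3.22 ± 0.37, adjusted p = 0.00020). Fgfr1 fell (log2 fold change -1.41 ± 0.18, adjusted p = 0.00036), and the blastocyst, with 205 CPM, was above every cultured library and not on the blastoid side. Over the FGF and ERK list 6 of 19 rose and 8 fell, and without blastoid 1 the number higher was 2. Amot, a Hippo pathway scaffold of outer and inner cells, had 255 and 414 CPM in the blastoids, 29.9, 24.6, 75.7 and 51.98 CPM in the mTBLCs and 243 CPM in the blastocyst, on the blastoid side (log2 fold change 2.88 ± 0.39, adjusted p = 0.00047). In the Hippo list 6 of 17 rose and none fell (2 without blastoid 1), a share of 35.3% against 45.6% of all genes, with Yap1 (log2 fold change 0.46 ± 0.12, adjusted p = 0.012) and Tead2 (log2 fold change 0.87 ± 0.12, adjusted p = 0.00055) among them and the blastocyst on the blastoid side for both. In the BMP and Nodal list 6 of 15 rose and 6 fell. The BMP target Id2 rose to 116 and 106 CPM in the blastoids, against 27.5, 44.1, 30.4 and 50.6 CPM in the mTBLCs, with 342 CPM in the blastocyst, on the blastoid side (log2 fold change 1.54 ± 0.22, adjusted p = 0.00067). The Nodal target Lefty2 fell to 2.12 and 0.698 CPM in the blastoids, against 169, 90.2, 102 and 114 CPM in the mTBLCs, with 0.0804 CPM in the blastocyst, on the blastoid side (log2 fold change -6.41 ± 0.47, adjusted p = 2.0e-05, -7.39 without blastoid 1 and -5.77 without blastoid 2).

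Wnt target genes showed no single direction, with 7 of 16 higher (4 without blastoid 2, 3 without the passage 19 mTBLCs), 4 lower and 5 not passed. Axin2, a general feedback target, had 43.6 and 82.4 CPM in the blastoids, 40.1, 31.5, 50.1 and 38.4 CPM in the mTBLCs and 72.98 CPM in the blastocyst, within the blastoid range and on the blastoid side, but did not pass (log2 fold change 0.66 ± 0.25, adjusted p = 0.058). It passed without blastoid 1 (log2 fold change 1.05, adjusted p = 0.0080) and without the passage 14 mTBLCs (log2 fold change 0.78, adjusted p = 0.034). Rnf43, a negative regulator of Wnt receptors, rose to 18.3 and 15.4 CPM in the blastoids, against 1.03, 2.44, 2.06 and 3.10 CPM in the mTBLCs, with 0.161 CPM in the blastocyst, not on the blastoid side (log2 fold change 2.96 ± 0.37, adjusted p = 0.00032). Ccnd1, cyclin D1, fell to 38.2 and 44.5 CPM in the blastoids, against 259.9, 203, 309.8 and 251 CPM in the mTBLCs, with 3.78 CPM in the blastocyst, on the blastoid side (log2 fold change -2.63 ± 0.19, adjusted p = 2.0e-05). The ligand Wnt3a and the target Cdx1 fell in the blastoids (log2 fold change -2.30 ± 0.33, adjusted p = 0.00060; log2 fold change -2.71 ± 0.58, adjusted p = 0.0049) and were higher in the blastocyst, at 52.2 and 40.5 CPM, than in any of these cultures, so not on the blastoid side. Cdx1 had a change of -1.96 without blastoid 1 and of -4.39 without blastoid 2.

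Fibroblast genes were lower in the blastoids throughout: all 20 tested fell, with a median log2 fold change of -5.37. Their summed level was 912 and 725 CPM in the blastoids, 4436, 4609, 6339 and 6189.9 CPM in the mTBLCs and 313 CPM in the blastocyst, where 10 of the 20 had 0 counts. In the blastoids Lum alone was at 0 counts, in 1 library. Col1a1, a chain of fibrillar collagen, had 5.86 and 2.67 CPM in the blastoids, 321, 241, 486 and 392.2 CPM in the mTBLCs and 0.161 CPM in the blastocyst (log2 fold change -6.41 ± 0.44, adjusted p = 1.5e-05, -7.06 without blastoid 1). Lox, which cross-links collagen, had 1.25 and 0.821 CPM in the blastoids, 173, 239, 244 and 389 CPM in the mTBLCs and 0 counts in the blastocyst (log2 fold change -7.98 ± 0.45, adjusted p = 6.5e-06). The same medium on gelatin (2 libraries, passages 7 and 8) gave a summed level of 573 and 987 CPM, with 7 and 3 members at 0 counts. Against those cells 6 of 18 fibroblast genes tested were higher in blastoids (15.9% of all genes were) and 2 lower (13.6% of all genes), with a median log2 fold change of 1.04. Lox, for instance, was higher in blastoids than on gelatin, where it had 0 and 0.0483 CPM (log2 fold change 4.94, adjusted p = 0.024), and Col1a1 did not pass (0.60, adjusted p = 0.47). The part of fibroblast RNA in the other differences from the mTBLCs was not tested.

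**Figure D4:**
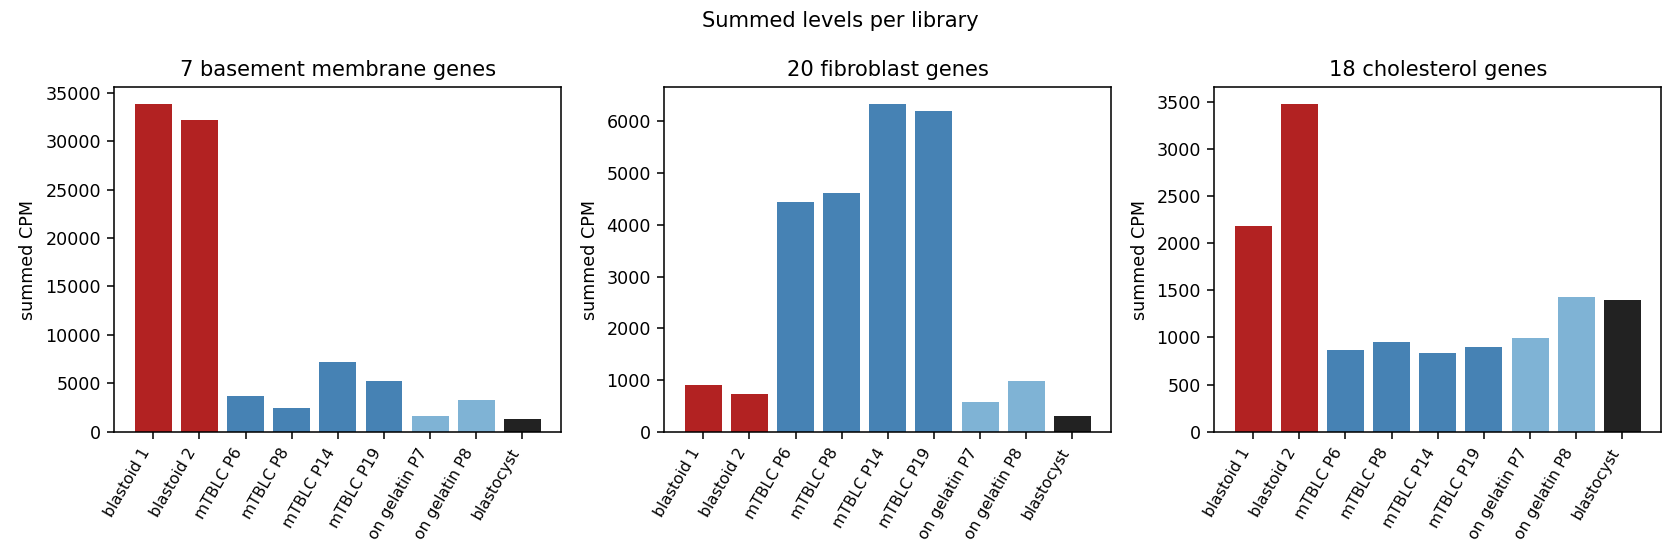
Summed CPM of 7 basement membrane genes, 20 fibroblast genes and 18 cholesterol genes in each library, for blastoids, mTBLCs, 2MYCP cells on gelatin and the blastocyst. Basement membrane genes are highest in the blastoids, and fibroblast genes are high in the 4 mTBLC libraries and low in the blastoids, the cells on gelatin and the blastocyst.

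The lineage calls were set against the cells on gelatin as well. Blastoids then had 19 of 30 epithelial genes, 20 of 23 primitive endoderm genes and 12 of 15 visceral endoderm genes higher, and 20 of 22 naive genes and 28 of 31 of the 2-cell genes lower. Of the 19 trophectoderm factors 8 were higher and 4 lower there (median log2 fold change 0.48). Cdk1, Col1a1, Dnmt3b, Hmgcs1, Lgals3, Mesp1, Msgn1, Nid1, S100a11, Tet1, Thbd and Yap1, called against the mTBLCs, were not called against the cells on gelatin. Tfap2c and Gsc were not called against mTBLC passages 1, 2 and 4 (log2 fold change 1.36, adjusted p = 0.063 for Tfap2c and log2 fold change -2.81, adjusted p = 0.050 for Gsc). Neither were Cdk1, Fgf5, Mesp1, Msgn1, Nid1 and T. Against the 0 h libraries Cdk1, Dnmt3b, Hgf, Hmgcs1, Lgals3, Msgn1, Nid1, S100a11 and Yap1 were not called. Cdx2 had 3.85 and 6.76 CPM on gelatin, and the log2 fold change of the blastoids against those cells was 2.23 (adjusted p = 0.0099). Krt18 and Gata4 rose against them too (log2 fold changes 3.45 and 3.52), and so did Cubn (7.57, adjusted p = 2.3e-05), which had not passed against the mTBLCs.

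The largest changes over all genes included genes outside the lists. Igfbp1, an insulin-like growth factor binding protein, had 133 and 120.0 CPM in the blastoids and 0 counts in all 4 mTBLC libraries and in the blastocyst. It was at least 4114-fold higher in blastoids, against a floor of 3 counts for the mTBLC group (adjusted p = 5.3e-06). Tmprss2, a membrane serine protease, had 207 and 176 CPM in the blastoids, 0.165, 0.271, 1.26 and 1.01 CPM in the mTBLCs and 263 CPM in the blastocyst, on the blastoid side (log2 fold change 8.15 ± 0.43, adjusted p = 6.2e-06). Cyp26a1, which degrades retinoic acid, had 310.2 and 121 CPM in the blastoids, 0.661, 0.542, 1.09 and 2.26 CPM in the mTBLCs and 0.402 CPM in the blastocyst, not on the blastoid side (log2 fold change 7.57 ± 0.51, adjusted p = 1.3e-05, 6.75 without blastoid 1). The calcium binding protein gene S100g and the factor Rfx6 were among the 10 largest rises too (log2 fold change 7.73 ± 0.54, adjusted p = 1.7e-05; log2 fold change 7.46 ± 0.75, adjusted p = 9.8e-05), both with the blastocyst on the mTBLC side. Without blastoid 2 their changes were 6.97 and 6.82, and without passage 19 that of Rfx6 was 8.88. Among the largest falls were Hgf, hepatocyte growth factor, and the chemokine Cxcl5. Hgf had 0 counts in both blastoids and in the blastocyst and 8.96, 14.7, 25.6 and 22.03 CPM in the mTBLCs, which makes it at least 273-fold lower in blastoids (adjusted p = 8.9e-05). Against the 0 h libraries of the time courses Hgf did not pass (adjusted p = 0.072). Cxcl5 had 0.0922 and 0 CPM in the blastoids, 72.1, 46.3, 185 and 127 CPM in the mTBLCs and 0 counts in the blastocyst (log2 fold change -11.10 ± 1.03, adjusted p = 6.3e-05; its fitted value depends on the prior count). Both were at 0 counts in the cells on gelatin. Of the 20 fibroblast genes, 7 and 3 were at 0 counts in the 2 gelatin libraries, Col3a1 among them, and the others were not. The part of fibroblasts in the falls of Hgf and Cxcl5 was not tested. The blastocyst was on the blastoid side for Hgf and Cxcl5.

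Cholesterol genes rose as a block. All 18 tested were higher in the blastoids, with a median log2 fold change of 1.51 (1.92 without blastoid 1 and 1.07 without blastoid 2). Their summed level was 2182 and 3477 CPM in the blastoids, 866, 951, 839 and 895 CPM in the mTBLCs and 1394 CPM in the blastocyst. Insig1, the sterol sensor that is itself a sterol-regulated gene, had 409.7 and 543 CPM in the blastoids, 23.9, 39.2, 25.5 and 34.7 CPM in the mTBLCs and 139 CPM in the blastocyst, on the blastoid side (log2 fold change 3.95 ± 0.21, adjusted p = 6.3e-06). Hmgcs1, whose promoter is printed above, had 174 and 406 CPM in the blastoids, 125, 139, 117 and 129 CPM in the mTBLCs and 129.6 CPM in the blastocyst, within the mTBLC range and not on the blastoid side (log2 fold change 1.19 ± 0.26, adjusted p = 0.0058). The second blastoid was the higher for both of these genes, and without it the log2 fold change of Hmgcs1 was 0.48. The blastocyst was on the blastoid side for 10 of the 18, against 49.0% of all genes that rose. Against the cells on gelatin 9 of the 18 were higher and none lower.

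More imprinted genes rose than fell in the blastoids, and nearly all were lower in the blastocyst than in either culture. Of 22 tested, 12 rose, 3 fell and 7 did not pass (median log2 fold change 0.87). The median was 0.46 without blastoid 2. Without the passage 8 mTBLCs 8 of 21 tested rose. H19, a maternally expressed non-coding RNA, had 5009 and 4677 CPM in the blastoids, 197, 294, 585 and 336 CPM in the mTBLCs and 8.12 CPM in the blastocyst (log2 fold change 3.78 ± 0.34, adjusted p = 5.9e-05). Peg10, a paternally expressed placental gene, had 2392 and 3237 CPM in the blastoids, 181, 225, 356 and 278 CPM in the mTBLCs and 8.76 CPM in the blastocyst (log2 fold change 3.44 ± 0.25, adjusted p = 1.9e-05). The non-coding Meg3 had 1001 and 1346 CPM in the blastoids, 193, 137, 331 and 232 CPM in the mTBLCs and 2.81 CPM in the blastocyst (log2 fold change 2.39 ± 0.29, adjusted p = 0.00024). The blastocyst was below every cultured library for 21 of the 22. It was on the blastoid side for none of the 12 that rose, against 49.0% of all genes that rose. It was also below every cultured library for 17 of 20 p53 targets and 16 of 21 glycolysis and hypoxia genes. For spliceosome genes this held for 1 of 22 and for epithelial genes of the trophectoderm for 1 of 30. The share over all genes was not counted, so the 21 of 22 cannot be called particular to imprinted genes. Plagl1 and Mest fell (log2 fold change -2.47 ± 0.34, adjusted p = 0.00054; log2 fold change -1.87 ± 0.19, adjusted p = 0.00011), with the blastocyst on the blastoid side.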

How the data were processed

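Bulk RNA-seq of mouse cells and embryos was read from the count tables that the authors deposited. Per the submitters' processing notes the raw counts per gene symbol were made with Trimmomatic, HISAT2 and featureCounts, with mm10 and hg38 among the builds named; versions, annotation, strand and read pairing are not given in the sources used here. Per the labels' protocols, a VAHTS Universal V8 kit was used for library preparation. Even values made up 73.9% to 82.2% of low counts (under 20) in the 7 libraries, a pattern that counting each mate of a pair would give, and halved counts were therefore tried. Of 24984 rows, 26 carrying dates in place of gene names were dropped. Every column of the tables read was matched to a sample, and only the libraries of the groups named here were used.

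Counts of the 7 libraries (3 groups) entered 1 model in edgeR 4.0.16 (R 4.3.3), with filterByExpr, TMM scaling and the quasi-likelihood F test, and p-values were adjusted by Benjamini-Hochberg over 17041 genes. The standard error beside a log2 fold change is its size over the square root of F. CPM values are scaled by TMM over the 7 libraries, and those of cells on gelatin over 21 libraries. On simulated data with 200 changed genes among 17041, this fit found 34% of 2-fold and 79% of 4-fold changes, and 5.04% of its 119 calls were false. In the real comparison 45.6% of genes were called, a far larger share, so these rates need not hold for its 7770 calls.

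The libraries, the gene lists and the naming rule were chosen with earlier results of these data known. Genes were named from 22 lineage genes fixed whatever their result, the top 5 called members of every list in each direction, and, among genes averaging 5 CPM or more in a group, the 10 with the largest rise and the 10 with the largest fall (predicted Gm and Rik genes excepted); not all are printed. Named after their values were seen were Apoe, Aqp9, Bhmt, Cubn, Dab2, Epcam, Gcm1, Hmgcs1, Lama1, Lrp2, Syna, Tead4, Tfap2a and Tfcp2l1, with the genes given only as members of a sum or at 0. For a group with no counts, folds were taken against 3 counts in that group's summed libraries, which covers counting error only. Tried as alternatives were size factors of DESeq2, an unfiltered table, a minimum of 5 CPM in 2 libraries, DESeq2 1.42.0 with its Wald test, omission of 1 library at a time, a fit without the blastocyst or with TELC and PreLC libraries, other control cells, halved counts and a correction for the trend with exon length in every library (GENCODE M21, 98.2% of genes matched). The 8 motifs searched in RefSeq promoters, chosen after the data were seen, were TCACNCCAC (sterol response), AACCNGTT with its special case AACCGGTT (grainyhead factors), GGAATG for TEAD factors, TGATAA for GATA factors, TGTTTAC for FOX factors, and CAAAGTCC and CAAAGGTCA for HNF4; 3 are shown. The longer HNF1 motif was looked at as well and is not reported. Some genes of the lists are counted but not reported by name here.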

Additional observations from a re-analysis of the deposited data

Results flagged for a closer look

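Among 109 of the genes named, 8 had 1 mTBLC library far from the others, by a gap test that flags about 1 in 20 groups by chance. Passage 14 stood apart for Cdx2 (2.02 CPM, the others 0.496 to 0.697), Gata2 (8.20 CPM) and Plac1 (1.14 CPM). Passage 6 stood apart for Esrrb (597 CPM, the others 359 to 394), Lefty1 (93.3 CPM, the others 29.4 to 31.3) and Tead2 (84.4 CPM). Passage 8 stood apart for Gcm1 (0.620 CPM) and S100a11 (67.9 CPM, the others 95.8 to 98.7). Without its outlying library each of Cdx2, Gata2, Plac1, Esrrb, Lefty1, Tead2 and S100a11 still passed in the same direction. Gcm1, which had not passed, did so without passage 8 (log2 fold change 3.11, adjusted p = 0.018).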

How the results depend on the processing

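The counts of genes that rose and fell in blastoids (3726 and 4044) were 3028 to 3480 and 3029 to 3852 when 1 library was left out. With TELC and PreLC libraries in the fit they were 1137 and 1169, and 9 naive and 15 2-cell genes fell while 6 trophectoderm factors and 6 imprinted genes rose. In that fit 23 named genes lost their call. They were Afp, Aqp3, Ccne1, Cdk1, Cdx1, Dnmt3b, Eomes, Esrrb, Gdf3, Klf5, Lgals3 and Lrp2. Also among them were Mesp1, Mest, Msgn1, Nid1, S100a11, Slc2a3, Tbx20, Tet1, Wnt3a, Yap1 and Zfp352. Against 0 h libraries of the time courses 2446 rose and 2313 fell, with 11 cholesterol genes higher. Against cells on gelatin 2233 fell, with 2 fibroblast genes lower and 9 cholesterol genes higher. The cause of these shifts was not tested. Against cells on gelatin the sign turned for Cdk1 (-0.23), Col1a1 (0.60), Lox (4.94), Nid1 (0.68), Tfap2a (-1.76) and Thbd (1.09), as it did for Gata3 against passages 1, 2 and 4 (1.16) or 0 h libraries (1.10) and for Tead4 against 0 h libraries (-0.65). DESeq2 size factors, no filter, a stricter filter, DESeq2, halved counts, removal of the length trend and a fit without the blastocyst turned no named gene and kept both counts within 1.5 times. The 70 lineage genes with the blastocyst on the blastoid side were 69 with a pseudocount of 0.1, 70 with 2, 69 with DESeq2 size factors and 54 where the blastocyst had to lie at least as far out as the nearer blastoid. No paired analysis was possible because the blastoid numbers and the mTBLC passages share no label that pairs them. The blastocyst is 1 library of 14375343 counts, so its levels have no replicate check.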

Other observations

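The metabolic, chromatin and housekeeping lists below had calls in both directions or downward, against 21.9% of all genes called higher and 23.7% lower. Glycolysis and hypoxia genes (21 tested) included 7 that rose and 4 that fell, but without blastoid 1 only 3 rose, while without blastoid 2 only 1 fell. Against other controls they were mostly higher, with 11 higher and 1 lower against the cells on gelatin, 12 and 2 against mTBLC passages 1, 2 and 4, and 16 and 2 against the 0 h libraries (median log2 fold changes 1.45, 1.29 and 1.83, against 0.17). The glucose transporter Slc2a3 had 4881 and 3126 CPM in the blastoids, 1476, 1918, 1108 and 1617 CPM in the mTBLCs and 1119 CPM in the blastocyst (log2 fold change 1.39 ± 0.23, adjusted p = 0.0015). Of 10 DNA methylation genes tested 2 rose (1 without blastoid 1 or passage 19) and 5 fell. Tet1, which oxidizes methylcytosine, had 177 and 145 CPM in the blastoids, 1019.6, 841, 783 and 791 CPM in the mTBLCs and 489 CPM in the blastocyst (log2 fold change -2.41 ± 0.18, adjusted p = 2.0e-05). Zfp57, which keeps imprints methylated, had 115 and 158 CPM in the blastoids, 709.5, 619, 559 and 547 CPM in the mTBLCs and 104 CPM in the blastocyst (log2 fold change -2.16 ± 0.19, adjusted p = 4.5e-05). Against the cells on gelatin Tet1 did not pass (log2 fold change -0.31, adjusted p = 0.55) and Zfp57 did (-2.60, adjusted p = 0.00041). Of 20 p53 targets none rose and 10 fell (5 without blastoid 2), of 18 interferon genes 1 rose and 8 fell, of 16 stress genes 1 rose and 5 fell, and of 22 spliceosome genes 5 rose and 6 fell. Calls in either direction made up 37.5% of the stress list and 50% of the spliceosome list, against 45.6% of all genes. Set against the cells on gelatin, 1 of 16 interferon genes was higher and 2 lower. Their median log2 fold change was then 0.29, and -1.52 against the mTBLCs. Of 20 p53 targets 2 were higher and 4 lower there (median -0.37, and -0.38 against the mTBLCs). Stress genes counted 5 higher and 2 lower against those cells, and spliceosome genes 0 higher and 8 lower. Without blastoid 2, stress genes counted 4 higher and 3 lower and spliceosome genes 3 and 3, and without blastoid 1 only 3 spliceosome genes were lower. Of 19 proliferation genes 1 rose, Cdk1 (log2 fold change 0.59 ± 0.12, adjusted p = 0.0038), and 1 fell, Ccne1 (log2 fold change -1.16 ± 0.19, adjusted p = 0.0012).

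The immediate early genes Fos, Egr1, Jun and Atf3, chosen after their values were seen, summed to 1120.1 and 200.3 CPM in the blastoids, 102, 634, 853 and 892 CPM in the mTBLCs and 102 CPM in the blastocyst. Blastoid 1 and passages 8, 14 and 19 were high, and blastoid 2, passage 6 and the blastocyst were low.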
